A study of Mus musculus with 45 samples.

Results

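The effect of mainstream cigarette smoke on gene expression in the mouse heart was compared between 2 diets. Mainstream smoke is the smoke drawn through the cigarette. The question, taken from the title of the series, is whether obesity from diet changes how the heart responds to smoke. All mice were male C57BL/6 and 15 weeks old when exposure began. RW (regular weight) mice ate standard chow with about 5 kcal% fat. DIO (diet-induced obese) mice received high-fat pellets, with 60 kcal% fat, beginning at 6 weeks of age, for 9 weeks before exposure and on through it. The groups were 8 RW-SC and 8 DIO-SC hearts from mice in filtered air (SC, the sham control), and 8 RW-MS and 6 DIO-MS hearts from mice in mainstream smoke (MS). Exposure was through the nose only, for 5 h a day, with 8 exposures over 2 weeks, and hearts were taken the day after the last. Members were chosen by the group in the sample title, which gave 30 of the 45 arrays of the series. The other 15 arrays are sidestream smoke (SS), the smoke from the burning tip, and entered the fit for its estimate of spread and for the comparisons with sidestream smoke at the end.

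For each gene the smoke effect in RW mice (RW-MS minus RW-SC) was subtracted from the smoke effect in DIO mice (DIO-MS minus DIO-SC). This difference of differences, on the log2 scale, is called the interaction here. A positive interaction means that smoke moved the gene further up, or less far down, on the high-fat diet. Values are log2 expression values, so levels are compared between groups for the same gene and never between genes. The labels call the arrays biological replicates, and p-values come from limma with Benjamini-Hochberg adjustment over all 9295 genes tested. The number of arrays limits the precision, with a median standard error of 0.081 for an interaction.

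Polycyclic aromatic compounds in smoke bind the aryl hydrocarbon receptor (AhR), a transcription factor that switches on the gene for the detoxifying enzyme Cyp1a1. Heart muscle also answers stress through other systems that appear below. Heat shock factor drives the inducible chaperones Hspa1a and Hspa1b, the circadian clock times metabolism, glucocorticoids induce genes such as Cebpb and Ddit4, and transferrin receptor (Tfrc) brings iron into the cell.

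The promoters of 3 of the genes with large interactions are shown because each holds a short motif of its known regulator. All are from RefSeq on build GRCm38.p6, printed 5′ to 3′ on the strand of the gene, from 250 bases before to 50 bases after the start. In Hspa1a and Hspa1b the capitals mark GAANNTTC, a heat shock element core whose first base is at -104 from the start in both. In Cyp1a1 the capitals mark GCGTG, the core of the dioxin response element, whose first base is at -54, and the TATA box, TATAAA, at -30.
Hspa1a, chr17:34972107-34972406, minus strand: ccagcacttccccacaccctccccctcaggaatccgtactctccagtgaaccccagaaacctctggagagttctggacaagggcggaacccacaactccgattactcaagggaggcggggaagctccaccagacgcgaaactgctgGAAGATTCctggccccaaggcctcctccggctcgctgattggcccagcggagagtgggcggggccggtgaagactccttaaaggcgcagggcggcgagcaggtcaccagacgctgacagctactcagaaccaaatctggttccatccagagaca
Hspa1b, chr17:34959189-34959488, minus strand: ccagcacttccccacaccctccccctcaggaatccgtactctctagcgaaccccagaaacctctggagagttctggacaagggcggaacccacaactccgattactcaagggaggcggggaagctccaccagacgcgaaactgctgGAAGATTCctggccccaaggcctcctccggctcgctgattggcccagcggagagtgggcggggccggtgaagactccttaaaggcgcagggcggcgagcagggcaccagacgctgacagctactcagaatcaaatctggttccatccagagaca
Cyp1a1, chr9:57697363-57697662, plus strand: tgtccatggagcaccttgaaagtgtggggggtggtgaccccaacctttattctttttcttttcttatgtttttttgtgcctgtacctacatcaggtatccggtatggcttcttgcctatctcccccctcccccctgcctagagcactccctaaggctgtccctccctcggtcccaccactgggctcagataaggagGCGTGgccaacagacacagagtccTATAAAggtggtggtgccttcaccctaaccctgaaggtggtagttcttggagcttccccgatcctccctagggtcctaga
The Hspa1a and Hspa1b windows differ at 4 of 300 bases. These genes are near-identical neighbours, so RNA of one can bind probes for the other and their values are not independent of each other. Both strands of all 32851 promoter windows of the RefSeq table were searched, and no motif overlapped another in the printed windows. GAANNTTC was present in 7.86% of windows, GCGTG in 32.4% and TATAAA in 13.6%. Of the 21 genes called below, 18 matched a promoter by symbol, and 13 of these held GCGTG, while 2, Hspa1a and Hspa1b, held GAANNTTC. A match is a string in a window and does not show binding.

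Heart identity was checked first. The 12 cardiac muscle markers, such as Myh6 and Tnnt2, had a mean level within 0.06 log2 units of their average over all 45 arrays on every one of the 30 arrays. Arrays correlated with the mean of their own group at 0.982 to 0.998, and the 3′ minus 5′ difference of the Gapdh control probes, a sign of RNA breakdown, lay between 0.21 and 0.40. Arrays 2, 6 and 8 of RW-MS stood apart in the mean of 10 atrial muscle markers, relative to its average over all arrays. This mean ran from -3.36 to -2.77 log2 units on these arrays (median -2.82). It was -0.10 to 0.52 on the other 5 RW-MS arrays and -0.59 to 0.86 in the other 3 groups. In whole-heart RNA, fewer cells of a type and less RNA per cell cannot be told apart. Results that rest on RW-MS 2, 6 and 8 are given with and without these arrays. For 10 markers of lymphocytes and antigen-presenting cells, array 7 of RW-MS had a mean of 1.39 and array 1 of RW-SC had 1.22. Both means were above those of the rest. The labels give no batch and no time of day for the killing.

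Few genes passed the test of a different response to mainstream smoke on the 2 diets. A gene that did not pass may still differ. The interaction passed the test for 21 of 9295 genes (0.226%), 14 with a positive interaction (0.151%) and 7 with a negative one (0.0753%). Among these 21 the largest were the chaperone Hspa1b (-1.71), the detoxifying enzyme Cyp1a1 (1.63), the chaperone Hspa1a (-1.39), the iron receptor Tfrc (1.38) and the stress-induced mTOR inhibitor Ddit4 (-1.13). The sizes of the 21 ran from 0.22 to these values with a median of 0.51, and 9 reached 1.5-fold. At an unadjusted p below 0.05 the count was 1057 genes (11.4%). Over all genes tested the median interaction was 0.015 and 56.5% were positive.

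Within RW mice smoke changed 638 genes (6.86%), of which 266 rose (2.86%) and 372 fell (4.0%). Within DIO mice it changed 423 (4.55%), of which 340 rose (3.66%) and 83 fell (0.893%). Genes that passed in both diets and the same way numbered 112, which is 17.6% of the RW genes and 26.5% of the DIO genes. Of these, 80 rose and 32 fell, and 0 passed in opposite directions. Across the 9295 genes the RW and DIO effects, which share no arrays, had a Pearson correlation of 0.26, given as a description because genes are not independent replicates. The RW count was 380 without RW-MS 2, 6 and 8. The DIO count was 221 without DIO-MS 5, 248 without DIO-MS 6 and 249 without DIO-SC 5. Passing on one diet and not the other is not a difference between the diets: only the 21 genes above passed the test of the difference. The diets themselves differed in air in 1883 genes (20.3%), 643 higher in DIO mice (6.92%) and 1240 lower (13.3%). Under mainstream smoke they differed in 985 (10.6%), 478 higher (5.14%) and 507 lower (5.45%). Both diet comparisons share arrays with the interaction, so their values are set beside it as a description of where the smoke effects started and ended.

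**Figure D1:**
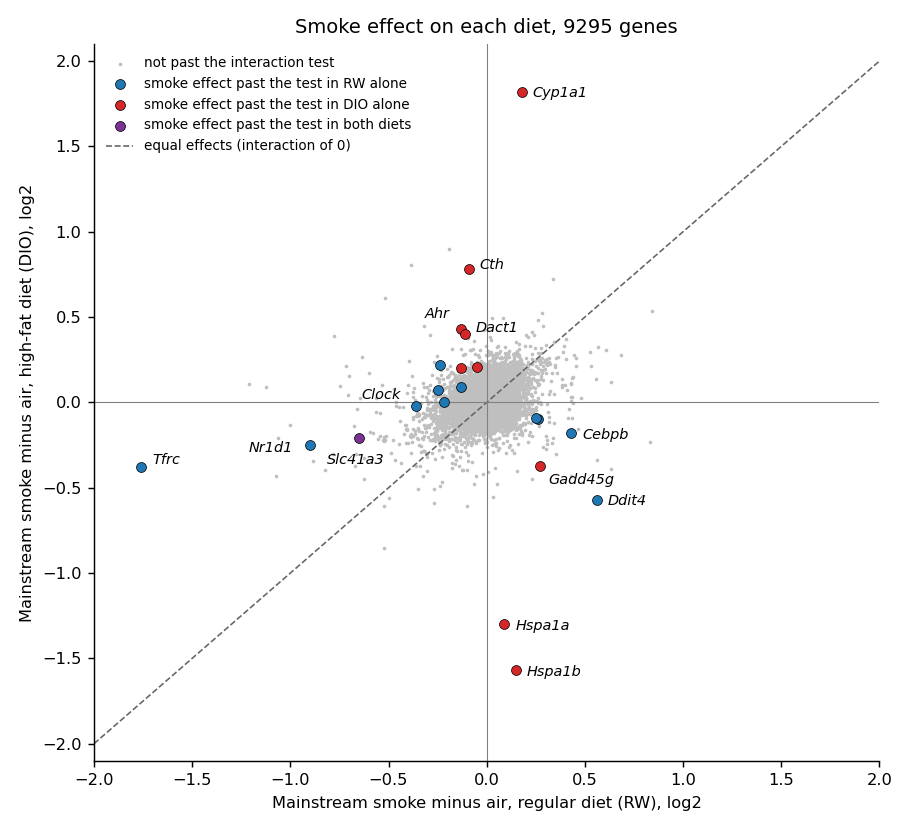
Smoke effect (smoke minus air, log2) in RW mice on the horizontal axis and in DIO mice on the vertical axis, 1 point per gene, with 3 grey genes outside the axes. Coloured points are the 21 genes past the interaction test; they lie off the dashed line of equal effects, most of them near 1 of the 2 axes, with Tfrc and Nr1d1 far left and Cyp1a1, Hspa1b and Hspa1a far up or down.

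Sorted by the 2 smoke effects, the 21 genes fell into 3 kinds. In 11 the smoke effect passed in RW mice alone, in 9 it passed in DIO mice alone, and in 1, Slc41a3, it passed in both with the same sign. None passed in opposite directions, although in 15 of the 21 the estimates had opposite signs. The rule that picked the 21 is the difference itself, so these patterns only describe them.

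Cyp1a1 had the smallest adjusted p of the 21. Cyp1a1, the enzyme that oxidises polycyclic aromatic compounds, had log2 values of 5.27, 5.70 and 5.89 (lowest, median and highest) in RW-SC and 5.43, 5.88 and 6.19 in RW-MS. In DIO-SC they were 4.15, 4.30 and 4.82, and in DIO-MS 5.86, 6.19 and 6.55. Every DIO-SC array thus lay below every array of the other 3 groups, and the RW groups overlapped. Smoke raised Cyp1a1 in DIO mice by 1.82 ± 0.13 (SE; 3.52-fold, adjusted p = 9.7e-14 by limma), and the estimate in RW mice was 0.18 ± 0.12 (adjusted p = 0.415). The interaction was 1.63 ± 0.17 (95% interval 1.28 to 1.99, adjusted p = 6.5e-08). The starting level differed: in air Cyp1a1 was 1.29 lower on the high-fat diet (mean 4.38 against 5.67, adjusted p = 1.0e-10), whereas under smoke the diets differed by 0.34 (6.20 against 5.85, adjusted p = 0.0761). The DIO-SC mean lies below 4.90, the level under which the dimmest 25% of genes were set aside, so this baseline is close to the dim end of the array.

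Ahr, the receptor itself, had values of 6.33 to 7.13 (median 6.78) in DIO-SC and 7.02 to 7.25 (median 7.19) in DIO-MS, and only 1 DIO-SC array reached into the DIO-MS range. In RW mice it was 6.85 to 7.22 (median 7.09) in air and 6.68 to 7.21 (median 6.95) in smoke, which overlap throughout. Its interaction was 0.56 ± 0.12 (adjusted p = 0.0256), from a rise of 0.43 in DIO mice (adjusted p = 0.00322) and -0.13 in RW mice (adjusted p = 0.408). This call was fragile. It was lost without DIO-SC 2, RW-MS 7, DIO-MS 3 or DIO-MS 6 (adjusted p up to 0.0623) and without RW-MS 2, 6 and 8 together (0.0911), and a dimmer second probe set for Ahr gave 0.08.

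Of the 8 genes measured in the list of AhR and its targets, 2 had a positive interaction past the test and 0 a negative one, with a median of 0.27. Without RW-MS 2, 6 and 8 only Cyp1a1 passed and the median was 0.14. In RW mice 0 of 8 passed, and in DIO mice 2 rose. The other 6 did not pass. The interaction was 0.39 for Cyp1b1, a related enzyme (95% interval -0.04 to 0.82), 0.33 for Ahrr, the repressor of the receptor (-0.03 to 0.68), 0.22 for Tiparp, which also restrains it (0.05 to 0.39), and 0.10 for the quinone reductase Nqo1 (-0.11 to 0.31). Without RW-MS 2, 6 and 8 the interaction was 0.10 for Cyp1b1 (adjusted p = 0.886), 0.13 for Tiparp, 0.41 for Ahrr and 0.14 for Nqo1. List members named here and below that did not pass the interaction test were chosen after their values were seen, apart from those on the panel given under the processing steps. Ahrr and Tiparp were also lower in DIO than in RW mice in air, by 0.54 (a difference of -0.54, adjusted p = 0.00117) and 0.23 (-0.23, adjusted p = 0.00476). Cyp1b1 (-0.33, adjusted p = 0.103) and Nqo1 (-0.07, adjusted p = 0.538) did not pass the test of the diet in air.

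The inducible heat shock proteins went the other way. Hspa1b, which refolds damaged proteins, had log2 values of 7.08, 7.31 and 7.43 in RW-SC and 7.02, 7.26 and 8.60 in RW-MS. In DIO-SC they were 8.59, 9.36 and 10.81, and in DIO-MS 7.59, 7.71 and 9.30. DIO-SC hearts were high without overlap with RW-SC, and 5 of the 6 DIO-MS hearts lay below all of them, with DIO-MS 1 the exception. Smoke lowered Hspa1b in DIO mice (-1.57 ± 0.26, adjusted p = 0.000475), with 0.15 ± 0.24 in RW mice (adjusted p = 0.796). The interaction was -1.71 ± 0.36 (95% interval -2.43 to -1.0, adjusted p = 0.0144), and its 3 probe sets gave -1.61 to -1.73. In air the gene was 2.26 higher on the high-fat diet (adjusted p = 2.4e-09), and under smoke the difference was 0.55 (adjusted p = 0.183).

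Hspa1a showed the same picture with less certainty, with an interaction of -1.39 ± 0.32 (adjusted p = 0.0405). Its values were 7.05 to 9.37 (median 7.76) in DIO-SC against 6.26 to 7.85 (median 6.42) in DIO-MS, and 5.95 to 6.37 (median 6.15) against 5.76 to 6.54 (median 6.29) in RW mice. The overlap in DIO mice came from DIO-MS 1 at 7.85, while the next DIO-MS heart was at 6.67. The Hspa1a call was lost in 19 of the 30 fits that left out 1 array, with an adjusted p of up to 0.0905 without DIO-MS 6, whereas Hspa1b kept its call in all 30. With only the 30 arrays in the fit, both missed the threshold (0.0788 for Hspa1b and 0.141 for Hspa1a). That fit kept 13 of the 21 calls.

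Other chaperones moved the same way by less. Among 23 heat shock genes measured, 2 had a negative interaction past the test and 0 a positive one, and 18 of the 23 estimates were negative with a median of -0.11. Without RW-MS 2, 6 and 8 the negative count was 3, with Dnaja1 added. In DIO mice smoke lowered 7 of 23 and raised 0, and in RW mice 0 passed in either direction. The 7 were Hspa1b, Hspa1a, the large chaperone Hsph1 (-0.61), the co-chaperone Dnaja1 (-0.48), the Hsp90 activator Ahsa1 (-0.18) and the mitochondrial chaperonins Hspe1 (-0.14) and Hspd1 (-0.13). Of these, Dnaja1 came nearest to the interaction threshold (-0.53 ± 0.14, adjusted p = 0.0805, and 0.0213 without RW-MS 2, 6 and 8), and Hsph1 had -0.51 (adjusted p = 0.266). Dnaja1 values were 10.16 to 10.81 in DIO-SC and 9.79 to 10.25 in DIO-MS, so only the ends of these groups overlapped.

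The remaining genes whose smoke effect passed the test on the high-fat diet alone were Cth, Gadd45g, Dact1, Asxl1 and Phf20. Cth (cystathionine gamma-lyase) makes cysteine and hydrogen sulfide. Its values were 3.97, 4.60 and 4.79 in DIO-SC against 4.84, 5.35 and 5.69 in DIO-MS, without overlap, and 5.19, 5.36 and 5.65 against 4.91, 5.32 and 5.55 in RW mice, with overlap. The interaction was 0.86 ± 0.15 (adjusted p = 0.0027), made of a rise of 0.78 in DIO mice (adjusted p = 3.9e-05) and -0.09 in RW mice (adjusted p = 0.702). In air Cth was 0.86 lower on the high-fat diet, and under smoke both diets had a mean of 5.31. As for Cyp1a1, the DIO-SC mean of 4.53 is near the dim end of the array.

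Gadd45g, a growth arrest gene induced by stress, ran 6.51 to 6.95 (median 6.76) in DIO-SC and 6.10 to 6.55 (median 6.41) in DIO-MS, and 6.34 to 6.72 (median 6.47) and 6.42 to 7.12 (median 6.72) in RW-SC and RW-MS. All 6 DIO-MS arrays lay under the DIO-SC mean and 7 of 8 RW-MS arrays above the RW-SC mean. The effect was -0.37 in DIO mice (adjusted p = 0.0148), and the estimate of 0.27 in RW mice just missed the threshold (adjusted p = 0.0547). The interaction was -0.64 ± 0.13 (adjusted p = 0.0106). Dact1, an adaptor of Wnt signalling, had an interaction of 0.51 ± 0.10 (adjusted p = 0.0106), with a rise of 0.40 in DIO mice and -0.11 in RW mice.

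Asxl1, a chromatin regulator of the Polycomb system, had 0.34 ± 0.07 (adjusted p = 0.019), with 0.20 in DIO and -0.13 in RW mice. The Asxl1 call was lost without DIO-MS 5 or DIO-MS 6 (adjusted p up to 0.0648) and without RW-MS 2, 6 and 8 (0.085). Its second probe set gave 0.04. Phf20, a histone-reader protein, had 0.25 ± 0.05 (adjusted p = 0.019), lost without DIO-MS 6 (0.0632) or RW-MS 2, 6 and 8 (0.085). Its other 3 probe sets gave 0.03 to 0.13.

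**Figure D2:**
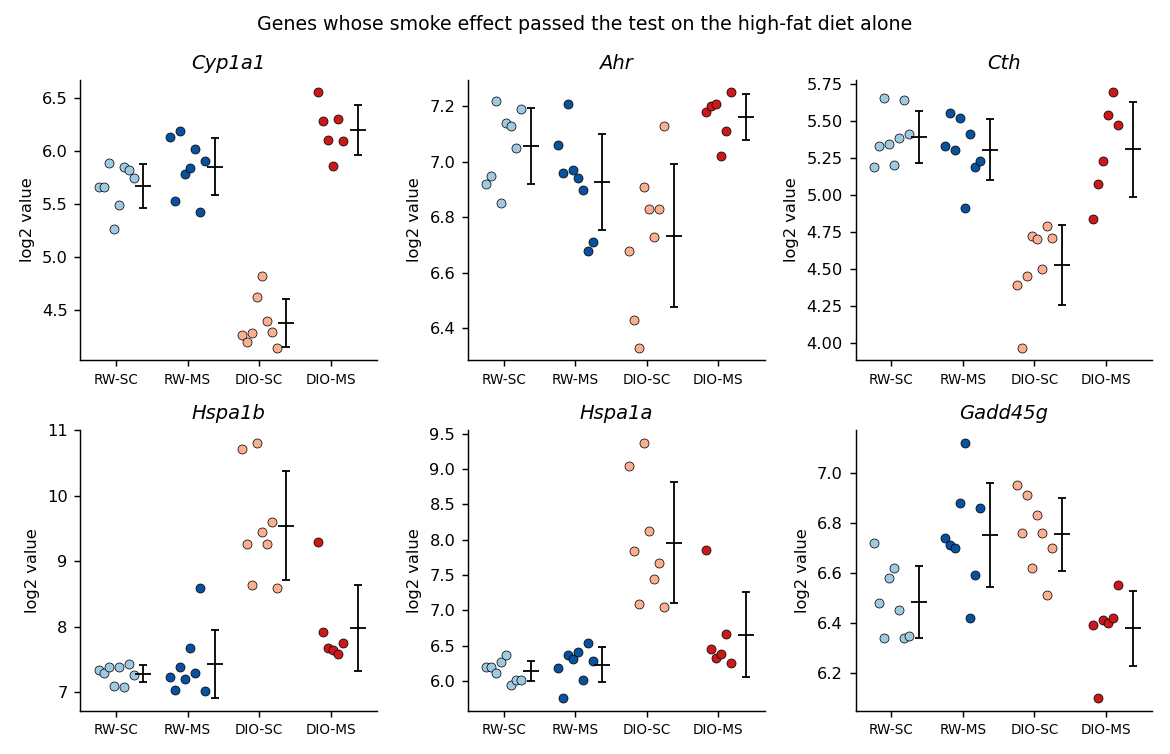
Log2 value of each heart (points) in the 4 groups for 6 genes with a smoke effect past the test on the high-fat diet alone, with mean and SD beside the points (8, 8, 8 and 6 hearts). In Cyp1a1 and Cth the DIO-SC hearts are low. The DIO-MS hearts are level with the RW groups or above them in Cyp1a1, and in Cth they overlap the RW groups, with DIO-MS 1 below every RW heart. In Hspa1b and Hspa1a the DIO-SC hearts are high and DIO-MS 1 lies far above the other DIO-MS hearts.

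Among the 21 genes, Tfrc had the largest smoke effect on the regular diet. Its log2 values were 9.99, 10.16 and 10.56 in RW-SC and 7.96, 8.67 and 8.88 in RW-MS. In DIO mice they were 10.15, 10.46 and 10.82 in air and 9.37, 10.13 and 10.37 in smoke. Every RW-MS heart was below every heart of the other 3 groups, while the DIO groups overlapped. The fall in RW mice was -1.76 ± 0.19 (3.39-fold, adjusted p = 1.4e-08), and the estimate in DIO mice was -0.38 ± 0.20 (adjusted p = 0.311). The interaction was 1.38 ± 0.27 (95% interval 0.83 to 1.93, adjusted p = 0.00924). This value is from the brightest of its probe sets (mean 9.51). In a fit of every probe set, which left out the dimmest 25% of probe sets in place of genes, 2 more of its sets were tested, at means of 5.69 and 4.69, and gave -0.06 and 0.16, and with the mean of all sets the call was lost (adjusted p = 0.256).

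Other genes of iron and heme did not pass. Of 21 measured, Tfrc was the 1 gene with an interaction past the test, and the median was 0.00. In RW mice 3 rose and 4 fell, and in DIO mice 1 rose. Alas1, the first enzyme of heme synthesis, fell in RW mice by 0.46 (adjusted p = 0.000707) and was at 0.00 in DIO mice, with an interaction of 0.46 (95% interval 0.20 to 0.73, adjusted p = 0.145). Slc40a1, the iron exporter ferroportin, rose in RW mice by 0.43 (adjusted p = 0.000291) and was at 0.01 in DIO mice, with an interaction of -0.42 (-0.65 to -0.19, adjusted p = 0.127).

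A pair of clock genes formed the next group. Nr1d1 (Rev-erb alpha), a repressor in the clock, had values of 6.92, 7.32 and 7.46 in RW-SC and 6.16, 6.34 and 6.66 in RW-MS. In DIO-SC they were 7.13, 7.23 and 7.39, and in DIO-MS 6.79, 6.99 and 7.11. The air and smoke groups did not overlap on either diet, but the gap was wider in RW mice. The RW fall was -0.90 ± 0.08 (adjusted p = 9.7e-11) against -0.25 ± 0.08 in DIO mice (adjusted p = 0.074), and the interaction was 0.65 ± 0.12 (adjusted p = 0.0027). In air the diets differed by -0.04 (adjusted p = 0.731).

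Clock, an activator of the cycle, fell in RW mice from a median of 7.37 (7.19 to 7.56) to 7.02 (6.88 to 7.15), without overlap. It was 7.29 (7.19 to 7.51) and 7.26 (7.21 to 7.36) in DIO-SC and DIO-MS, where the groups overlapped fully. The interaction was 0.34 ± 0.07 (adjusted p = 0.0186). It was lost without DIO-MS 5 (0.0536) and without RW-MS 2, 6 and 8 (0.0911), and a second probe set gave 0.14.

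Of the 17 clock genes measured, 2 had a positive interaction and 0 a negative one, with a median of 0.07. Without RW-MS 2, 6 and 8 only Nr1d1 passed and the median was 0.04. In RW mice 4 fell and 0 rose. They were Nr1d1, Clock, Bhlhe40 (-0.38) and Dbp (-0.33), the latter an output gene of the clock. In DIO mice 2 rose, Rora (0.25) and Nr1d2 (0.21). The interaction of Dbp was 0.37 (95% interval 0.14 to 0.60, adjusted p = 0.178) and that of Bhlhe40 0.15 (-0.05 to 0.35, adjusted p = 0.591). The 3 Per genes had interactions between -0.11 (Per2) and 0.09 (Per3). Without times of killing, an effect on level and an effect on the phase of the cycle cannot be told apart.

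Ddit4 and Cebpb, both induced by glucocorticoids, had estimates of opposite sign on the diets. Ddit4 values were 7.68, 7.96 and 8.26 in RW-SC and 7.98, 8.44 and 9.18 in RW-MS. They were 7.83, 8.48 and 9.18 in DIO-SC and 7.68, 7.92 and 8.18 in DIO-MS, so both pairs of groups overlapped. Smoke raised Ddit4 in RW mice by 0.56 ± 0.17 (adjusted p = 0.0424), with -0.57 ± 0.19 in DIO mice (adjusted p = 0.0646), and the interaction was -1.13 ± 0.25 (adjusted p = 0.0313). The call was lost in 14 of the 30 fits without 1 array, with an adjusted p of up to 0.0788 without DIO-MS 4.

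Cebpb, a transcription factor of the acute stress response, was firmer. Its values were 9.30, 9.45 and 9.74 in RW-SC, 9.68, 9.88 and 10.12 in RW-MS, 9.67, 9.83 and 10.01 in DIO-SC and 9.59, 9.68 and 9.75 in DIO-MS. All 8 RW-MS hearts lay above the RW-SC mean and all 6 DIO-MS hearts below the DIO-SC mean. The rise in RW mice was 0.43 ± 0.07 (adjusted p = 2.4e-05), the estimate in DIO mice -0.18 ± 0.07 (adjusted p = 0.155) and the interaction -0.61 ± 0.10 (adjusted p = 0.000831). A dimmer probe set gave -0.42 (adjusted p = 0.0863).

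Among 24 glucocorticoid-responsive genes, 2 had a negative interaction past the test and 0 a positive one, and 19 of 24 estimates were at or below 0 with a median of -0.16. Smoke raised 7 of them in RW mice and lowered 1, and raised 2 and lowered 1 in DIO mice. The members that rose in RW mice included the kinase Sgk1 (0.31, interaction -0.53, adjusted p = 0.0862) and the metallothioneins Mt2 (0.41, interaction -0.33, adjusted p = 0.528) and Mt1 (0.23, interaction -0.23, adjusted p = 0.347). The feedback gene Fkbp5 had 0.14 in RW and -0.30 in DIO mice (interaction -0.44, adjusted p = 0.399), and the receptor gene Nr3c1 had an interaction of 0.03. As with the chaperones, DIO-SC hearts already stood above RW-SC hearts for Ddit4 (0.56), Cebpb (0.38) and Sgk1 (0.66). Each passed the test of the diet in air, as did Fkbp5 (0.53). This did not hold for all members: Mt2 was lower on the high-fat diet (-0.49, adjusted p = 0.00553), and Mt1 was at -0.15 (adjusted p = 0.109).

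**Figure D3:**
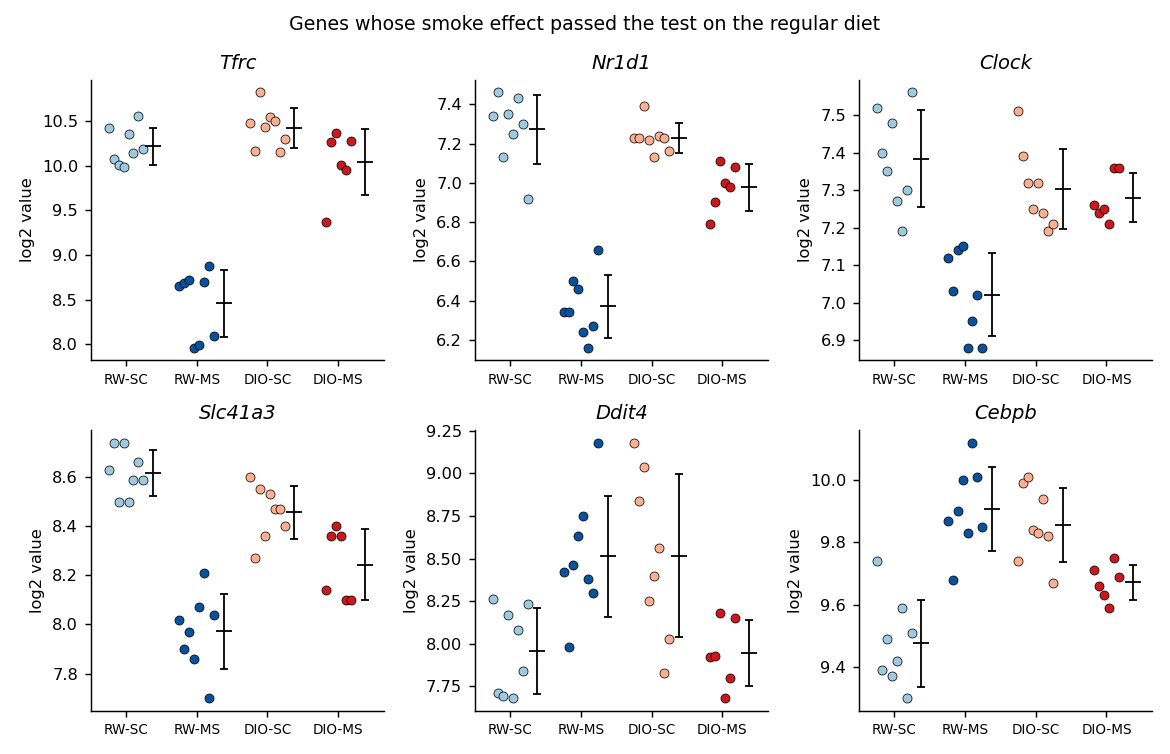
Log2 value of each heart (points) in the 4 groups for 6 genes with a smoke effect past the test on the regular diet, with mean and SD beside the points (8, 8, 8 and 6 hearts). RW-MS hearts lie apart from RW-SC hearts in Tfrc, Nr1d1, Clock and Slc41a3, and in Ddit4 and Cebpb the smoke groups lie above air in RW mice and below it in DIO mice.

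Slc41a3, a magnesium transporter, fell on both diets and further on the regular one. It was 8.50 to 8.74 (median 8.61) in RW-SC and 7.70 to 8.21 (median 8.00) in RW-MS, without overlap, and 8.27 to 8.60 (median 8.47) in DIO-SC and 8.10 to 8.40 (median 8.25) in DIO-MS, with overlap. The falls were -0.65 ± 0.06 and -0.21 ± 0.06 (adjusted p = 9.7e-11 and 0.0388), and the interaction was 0.44 ± 0.08 (adjusted p = 0.00701). Dimmer probe sets of Slc41a3 gave 0.20 (adjusted p = 0.294) and 0.78 (adjusted p = 5.4e-05).

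The other 6 genes whose smoke effect passed the test in RW mice alone had interactions between 0.22 and 0.46 in size. Pcf11, which ends transcripts, and Hectd3, a ubiquitin ligase, rose in RW mice by 0.26 and 0.25, in both cases without overlap. Their estimates in DIO mice were -0.10 and -0.09 (adjusted p = 0.29 and 0.343). Their interactions were -0.36 and -0.34 (adjusted p = 0.00508 and 0.00701). A dimmer probe set of Pcf11 gave -0.29 (adjusted p = 0.261). Arfgef1, a factor of vesicle traffic, had 0.22 (adjusted p = 0.0027), with -0.13 in RW and 0.09 in DIO mice. The DIO estimate of Arfgef1 just missed the threshold (adjusted p = 0.0526). Prkd1 (protein kinase D1, which relays growth signals in heart muscle) had 0.46 (adjusted p = 0.0261), with -0.24 in RW and 0.22 in DIO mice. The Prkd1 call was lost without DIO-SC 2, DIO-SC 6, DIO-MS 4 or DIO-MS 5 (adjusted p up to 0.0708). Ibtk, an inhibitor of Bruton's kinase, had 0.32 (adjusted p = 0.0276), lost in 8 of the 30 fits without 1 array, and Gid8, a subunit of a ubiquitin ligase, had 0.22 (adjusted p = 0.033), lost in 15 of the 30, with adjusted p of up to 0.0852 for both without DIO-MS 3. A dimmer probe set of Gid8 gave 0.36 (adjusted p = 0.118). Ibtk, Gid8 and Phf20 fall outside the rule for named genes and were named after their values were seen. They are included so that every gene past the test is given.

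**Figure D4:**
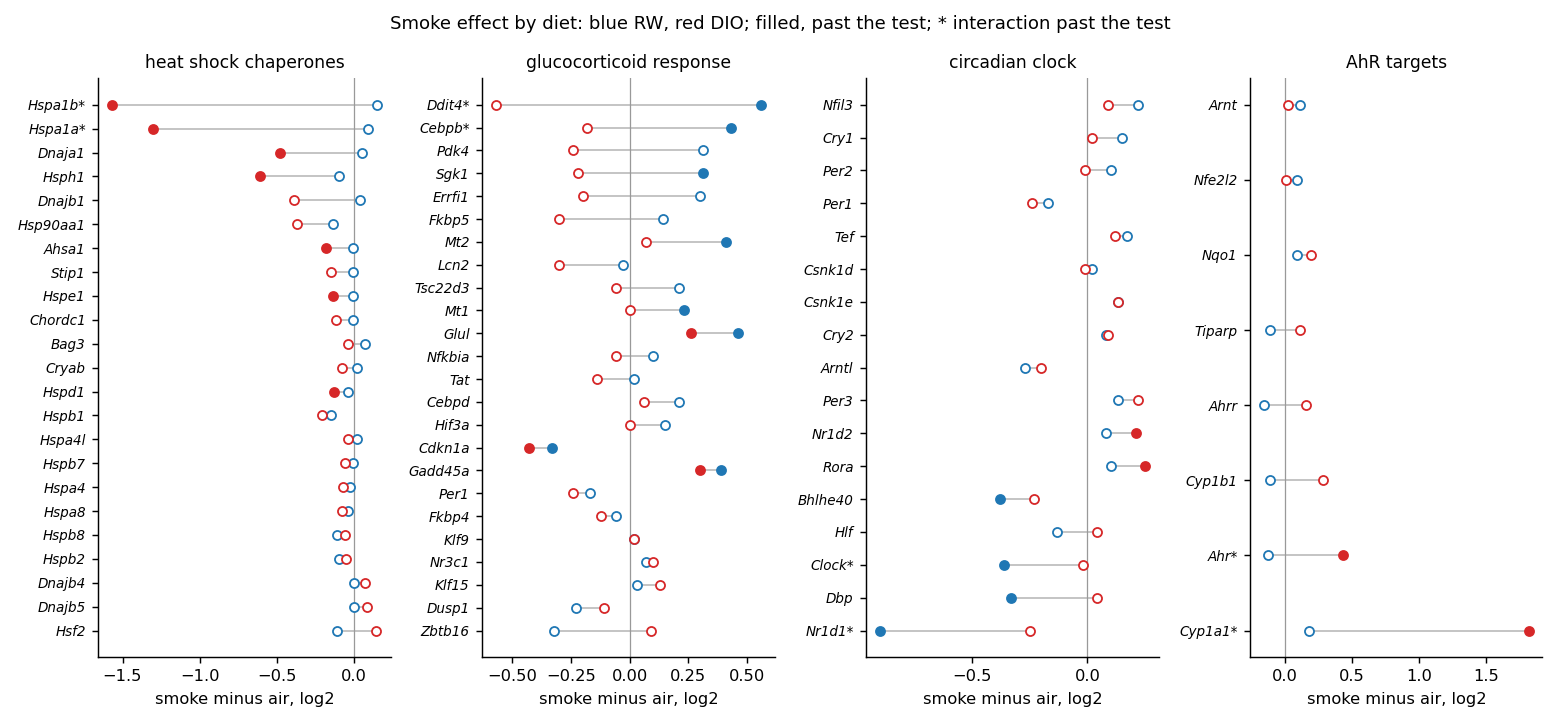
Smoke effect (smoke minus air, log2) in RW mice (blue) and in DIO mice (red) for each measured member of 4 gene lists, joined by a line and ordered by the interaction; filled points passed the test and starred genes passed the interaction test. The red points lie left of the blue ones for 18 of 23 chaperones, and the clock panel shows 4 filled blue points left of 0.

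Many genes that responded to smoke on the regular diet did not pass the interaction test, and their intervals say how large a difference remains possible. Gclm, needed for the first step of glutathione synthesis, had 8.30 to 8.57 in RW-SC and 8.79 to 9.20 in RW-MS, without overlap, and 8.09 to 8.48 and 8.34 to 8.57 in DIO-SC and DIO-MS. Its interaction was -0.42 (95% interval -0.66 to -0.18, adjusted p = 0.135). Of 22 NRF2 antioxidant genes, 4 rose in RW mice and 0 in DIO mice, but 0 passed the interaction test, 4 had an unadjusted p below 0.05 and the median interaction was -0.04. Kcne1, a subunit of a cardiac potassium channel, fell in RW mice (-1.06, adjusted p = 1.6e-06) with -0.21 in DIO mice. Its interaction was 0.85 ± 0.20 (95% interval 0.44 to 1.27) with an adjusted p of 0.0563, and 0.0258 without RW-MS 2, 6 and 8. In smoke its values were 4.41 to 5.17 in RW mice and 4.65 to 5.47 in DIO mice, at the dim end of the array.

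Among 19 genes of calcium handling and ion channels, 0 passed the interaction test, 7 had an unadjusted p below 0.05 and the median was 0.04. Without RW-MS 2, 6 and 8, 1 of them (Kcne1) passed and the median was 0.13. Besides Kcne1 they included Rrad, an inhibitor of calcium channels, which rose in DIO mice (0.40, interaction 0.68, adjusted p = 0.0563). Kcna5, a potassium channel, fell in DIO mice (-0.56, interaction -0.59, adjusted p = 0.19), and Kcnq1, the partner of Kcne1, fell in RW mice (-0.23, interaction 0.21, adjusted p = 0.199). Nppb, the gene for the stretch peptide BNP, fell in RW mice (-0.78, interaction 0.48, 95% interval 0.01 to 0.96, adjusted p = 0.431). Hmox1 (heme oxygenase), with -0.34 (adjusted p = 0.39), and Pdk4, a switch from glucose to fat use, with -0.55 (adjusted p = 0.43), did not pass either, and Pdk4 was at -0.36 without RW-MS 2, 6 and 8.

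Other genes responded on both diets. Glul (glutamine synthetase) rose by 0.46 in RW and 0.26 in DIO mice, and Nampt, which makes the cofactor NAD, by 0.53 and 0.30. The growth arrest gene Gadd45a rose by 0.39 and 0.30, and the glucose transporter Slc2a1 by 0.27 and 0.25. Cdkn1a (p21), which stops the cell cycle, fell by 0.33 and 0.43 (effects of -0.33 and -0.43), and Hspa5, the chaperone of the endoplasmic reticulum, by 0.25 and 0.19 (-0.25 and -0.19). Each of these 12 effects passed the test. Their interactions had intervals of -0.35 to -0.04 for Glul, -0.43 to -0.03 for Nampt, -0.32 to 0.14 for Gadd45a, -0.21 to 0.18 for Slc2a1, -0.34 to 0.13 for Cdkn1a and -0.10 to 0.22 for Hspa5, with adjusted p from 0.308 to 0.97. For these 6 genes a difference between diets in the smoke effect was not detected after adjustment, although the unadjusted intervals of Glul and Nampt were wholly negative.

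Other lists overlapped with those above or had no member past the test. In the list of 17 genes of the ATF4 amino acid response the members past it were Cth and Ddit4, in opposite directions, in the p53 and growth arrest list of 16 it was Gadd45g, and in the hypoxia list of 24 it was Tfrc. Most of the 26 process lists had none. Over all genes tested, 4.0% fell and 2.86% rose in RW mice, and 0.893% fell and 3.66% rose in DIO mice. Fewer falls in DIO mice thus held over all genes, and list counts here and above stand beside these shares. In the unfolded protein response, 9 of 25 genes fell in RW mice, among them Manf (-0.49), and 1 rose. In DIO mice 1 fell and 2 rose. The median interaction of this list was 0.06, or 0.03 without RW-MS 2, 6 and 8. In the extracellular matrix list 9 of 37 fell in RW mice and 0 passed in DIO mice, with 32 of 37 interactions positive and a median of 0.06, or 0.01 without RW-MS 2, 6 and 8. In the interferon and antigen presentation list 22 of 24 interactions were positive (median 0.14), while 0 members passed in any of the 3 comparisons and 0 had an unadjusted interaction p below 0.05. Lists of fatty acid oxidation (27 genes), the respiratory chain and ATP synthase (47) and the proteasome (27) had medians between -0.03 and 0.01 and 0 members past the test. The same held for the citrate cycle with branched-chain amino acid breakdown (27) and for inflammation (18).

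Transcripts of the atria were far lower on RW-MS 2, 6 and 8 than on all other arrays. The atrial genes Sln, Myl7 and Myl4 had interactions of 2.97, 2.66 and 2.56 (adjusted p = 0.325, 0.331 and 0.341), with a 95% interval of 0.55 to 5.39 for Sln, and 4 of the 10 atrial markers fell in RW mice. Sln ranged from 4.47 to 12.97 within RW-MS, with a mean of 5.09 on arrays 2, 6 and 8 and 12.62 on the other 5. Without those 3 arrays the 3 interactions were 0.15, 0.12 and 0.09, and the median of the list went from 1.02 to 0.11.

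Without RW-MS 2, 6 and 8 the interaction test passed 23 genes, 15 positive and 8 negative. They held 17 of the 21, and the 4 that missed were Ahr, Asxl1, Clock and Phf20. The estimates stayed close, at 1.61 for Cyp1a1, 1.40 for Tfrc, -1.90 for Hspa1b and 0.66 for Nr1d1. Fat cell markers ranged widely within groups (mean of 9 markers from -1.02 to 1.49 in RW-SC and -0.96 to 0.36 in DIO-MS), with 0 of 9 past the interaction test. On all arrays the median interaction of the fat markers was -0.13, and without RW-MS 2, 6 and 8 it was -0.62, as the median RW effect went from 0.09 to 0.71. The red cell list had means of -0.43 to -0.15 in RW-SC, -0.28 to 0.72 in RW-MS, -0.53 to -0.03 in DIO-SC and -0.49 to 0.36 in DIO-MS, with 0 of 5 past the interaction test and a median of -0.28 on all arrays and -0.42 without those 3. The 14 fibroblast markers had 0 past it and medians of 0.07 and -0.03. The part of these cell types in the 21 results was not tested.

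**Figure D5:**
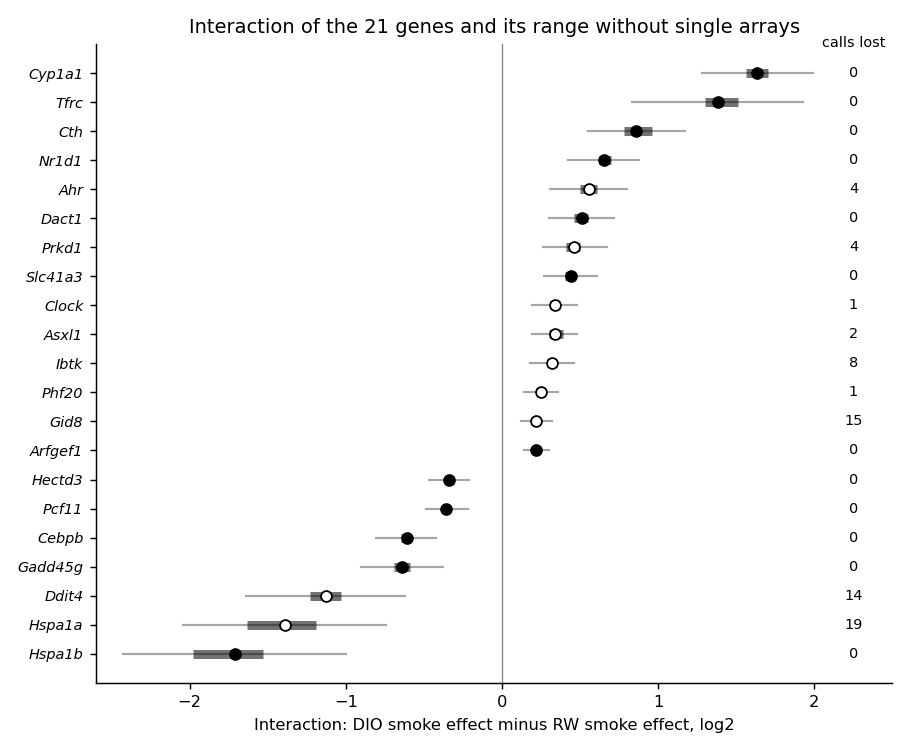
Interaction (log2) of each of the 21 genes (circle), its 95% interval (thin line) and the range of the estimate over 30 fits that each left out 1 array (thick bar). Filled circles kept their call in all 30 fits, and the number at the right is how many fits lost it: 12 genes lost none, and Hspa1a, Gid8 and Ddit4 lost 19, 15 and 14.

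Sidestream smoke allowed a further comparison with 7 RW-SS and 8 DIO-SS hearts. The sidestream interaction, with the same air groups, passed for 2641 genes (28.4%), 1700 higher (18.3%) and 941 lower (10.1%). Because the air groups are shared, its values are only set beside the mainstream ones. All 21 genes had the same sign in both interactions. The sidestream interaction was 0.88 for Cyp1a1, 1.36 for Tfrc, -1.95 for Hspa1b, 0.71 for Cth and 0.47 for Nr1d1. In the same order the mainstream interaction was 1.63, 1.38, -1.71, 0.86 and 0.65. Other genes among the 21 had a larger sidestream interaction, such as Cebpb (-0.89 against -0.61), Ddit4 (-1.34 against -1.13) and Ahr (0.71 against 0.56).

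The difference of the 2 interactions, in which the air groups cancel, passed for 784 genes (8.43%), 312 higher (3.36%) and 472 lower (5.08%) under mainstream smoke. Of the 21, it passed for 2. Cyp1a1 was 0.75 ± 0.18 higher (adjusted p = 0.0101), with DIO-SS at a mean of 5.13 against 6.20 in DIO-MS, and Prkd1 was 0.42 ± 0.10 higher (adjusted p = 0.0137). Tfrc (0.02 ± 0.28) and Hspa1b (0.23 ± 0.36) had wide errors. Among genes past this test, the 3 largest differences each way were Timp4, a matrix protease inhibitor (1.04), Zbtb16, a transcription factor (1.0), Kcne1 (0.76, adjusted p = 0.0205), Ppp1r14a, a regulator of smooth muscle contraction (-0.90), Clec2d, a lectin (-0.71), and Efhd1, a mitochondrial calcium-binding protein (-0.66, adjusted p = 0.0418). Except for Kcne1, whose mainstream interaction just missed the threshold, their mainstream interactions were between -0.30 and 0.41 with adjusted p from 0.466 to 0.929. The count of 784 was unstable: it ranged from 382 without DIO-MS 2 to 1361 without DIO-MS 6, was 1225 without RW-MS 8, 410, 477 and 402 without DIO-MS 1, 3 and 4, and 1305 without RW-MS 2, 6 and 8. A further quantile normalization gave 389 genes, with the split turned to 261 higher and 128 lower.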

How the data were processed

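The data were log2 expression values from Affymetrix arrays, in 1 table of 45 arrays and 22690 probe sets. Per the submitters' processing notes the authors deposited them after RMA, a method that corrects background, applies quantile normalization and takes log2. Its version, scan dates and batches are not stated. Deposited log2 values ran from 2.12 to 14.77, with array medians of 6.20 to 6.24. Labelling used 3 µg of total RNA, per the labels' protocols. Titles, treatment labels and the exposure protocol name cigarette smoke, although the label on diet names an LPS study.

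Of the probe sets, 64 were controls, 20393 had 1 gene in the platform annotation, 691 had several and 1606 were not listed. Each of 12394 genes was represented by its brightest probe set on average, and the dimmest 25% of genes (mean below 4.90) were left out, which left 9295. A linear model with 6 group means was fitted to all 45 arrays by limma (version 3.58.1, R 4.3.3) using lmFit with eBayes (42.6 residual degrees of freedom with the prior). Every p is two-sided and every adjusted p in the text is from limma with Benjamini-Hochberg adjustment over all genes, with a threshold of 0.05. Errors after ± are standard errors. The fit was tested on simulated data. Ranges and counts used Python 3.11.15 with pandas 2.3.3.

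The rule for named genes took the 10 largest interactions each way past the threshold, up to 4 genes past it with the smallest p from each list and each pattern of effects, the 3 largest differences each way from sidestream smoke, and genes of a panel. Panel genes named without passing are Cyp1b1, Nqo1, Hmox1, Gclm, Mt1, Mt2, Dbp, Per2, Bhlhe40, Kcne1, Nppb, Sln, Myl7, Glul, Nampt, Cdkn1a, Hspa5, Slc2a1, Fkbp5 and Pdk4. Members and the 40 gene lists were chosen with earlier results of these data known. Alternatives changed the probe set rule, the filter, the moderation, the arrays in the fit, the normalization, the weights and the covariates, and left out each array in turn. Replicate numbers in the titles did not pair the arrays: over 42 pairs, deviations of same-numbered arrays correlated at -0.048 on average (-0.558 to 0.358, 12 of 42 above 0.1), against 0.008 for other numbers.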

Additional observations from a re-analysis of the deposited data

Results flagged for a closer look

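The smoke effect differed between the diets, by the interaction test, for 21 genes. It was more positive on the high-fat diet for Cyp1a1 (1.63), Tfrc (1.38), Cth (0.86), Nr1d1 (0.65), Ahr (0.56), Dact1 (0.51), Prkd1 (0.46), Slc41a3 (0.44), Clock (0.34), Asxl1 (0.34), Ibtk (0.32), Phf20 (0.25), Arfgef1 (0.22) and Gid8 (0.22). It was more negative for Hspa1b (-1.71), Hspa1a (-1.39), Ddit4 (-1.13), Gadd45g (-0.64), Cebpb (-0.61), Pcf11 (-0.36) and Hectd3 (-0.34).

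Single arrays lay far from the rest of their group in 8 of the 84 sets made by these 21 genes in 4 groups, by Dixon's test, which flags about 1 in 20 sets by chance. DIO-MS 1 was high for both neighbouring chaperones, with Hspa1b at 9.30 against 7.92 in the nearest heart and Hspa1a at 7.85 against 6.67, and low for Dact1 at 7.05 against 7.23. RW-MS 7 was high for Hspa1b (8.60 against 7.67). This heart also had the highest mean of lymphocyte and antigen-presenting cell markers in its group (1.39). The other values were Asxl1 at 7.90 in RW-MS 3 (nearest 7.65), Dact1 at 7.5 in RW-SC 3 (7.17), Gadd45g at 6.10 in DIO-MS 2 (6.39) and Nr1d1 at 7.39 in DIO-SC 3 (7.24). Without DIO-MS 1 the number of genes past the interaction test was 35, against 21.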

How the results depend on the processing

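Of the 21 genes, 0 turned direction in any fit. The genes were picked by their interaction and the fits share most arrays, so a turn was unlikely. Of the 21, 12 kept their call in all 30 fits without 1 array, and 8 (Cyp1a1, Cth, Nr1d1, Gadd45g, Cebpb, Pcf11, Hectd3 and Arfgef1) kept it under every alternative in which they were tested. Cyp1a1, Cth, Pcf11, Prkd1 and Hspa1a were too dim to be tested with the lowest 50% of genes left out. Tfrc lost it with the mean of its probe sets (0.256), Slc41a3 with a further quantile normalization (0.0511) and Dact1 with the atrial mean as a covariate (0.0505). The interaction count was 14 to 35 without 1 array (14 without DIO-MS 5, 32 without DIO-SC 8, 33 without RW-MS 1) and 18 to 48 otherwise, with 48 (25 higher, 23 lower) under array weights. The RW count was 452 to 739 without 1 array and 380 without RW-MS 2, 6 and 8. The DIO count was 221 to 571, and 714 with array weights. The diet effect under smoke gave 712 to 1075 genes without 1 array and 1565 with array weights. The difference from sidestream smoke gave 382 to 1361 without 1 array, 1178 with every probe set, 2023 with array weights, 389 after quantile normalization, 1305 without RW-MS 2, 6 and 8 and 1281 with the atrial covariate. Quantile normalization turned the splits to 371 higher and 333 lower in RW mice (266 and 372 as reported), 287 and 121 in DIO mice (340 and 83) and 802 and 894 for diet in air (643 and 1240). Slc2a1 ranged from -0.06 to 0.02 without 1 array, and Gadd45a was at 0.01 without RW-MS 2, 6 and 8 and 0.02 with the atrial covariate. With the replicate number as a block 18 genes passed, 17 of them among the 21. With only the 30 arrays in the fit 21 genes passed, but only 13 of them were among the 21 reported. The calls lost in that fit were those of Ahr, Prkd1, Clock, Asxl1, Hspa1b, Hspa1a, Gid8 and Phf20. The cause of these changes was not tested.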
